A study of Mus musculus with 10 samples.

Results

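The genes described here are 35 nuclear genes whose products cut, stabilise, degrade or chemically modify the RNAs of the mitochondrial genome. They were chosen by name from a table of 22891 genes, and all 35 were found in it, Prorp through a synonym. RNA came from whole ovaries of mice aged 3 weeks that had received no hormone stimulation, of the strain given as C57/Bl6/N;129SvEv7. The groups were 5 libraries with the genotype Uba3 cKO and 5 with the genotype Control. UBA3 forms part of the enzyme that loads NEDD8, a ubiquitin-like protein, for transfer to other proteins, and the series title connects neddylation with transcription in mitochondria and with oocyte quality. Neither the exons removed nor the promoter or cells in which Uba3 was deleted are given in the labels. The level of Uba3 in the whole ovary was 10.12 ± 0.069 in ovaries labelled Uba3 cKO and 10.12 ± 0.18 in controls (SD, n = 5 each, log2 values), so it did not separate the labels, and group names here follow the labels. Whether each library came from its own animal is not stated, and p-values therefore cover only the spread among these libraries, which may be technical.

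Mitochondrial DNA is transcribed as long precursors in which tRNAs punctuate the coding sequences. Mitochondrial RNase P, made of the TRMT10C, HSD17B10 and PRORP proteins, and the nuclease ELAC2 cut the tRNAs out, which releases the mRNAs and rRNAs between them. Other proteins then stabilise and polyadenylate the mRNAs, modify tRNA and rRNA bases so that the mitochondrial ribosome can work, and degrade RNA that is no longer needed. A growing oocyte holds a very large number of mitochondria, and the granulosa cells around it have their own.

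In these ovaries all 35 genes were measured at levels above the filter of the test, and none of them differed between the genotypes beyond the spread of the libraries. Values are the authors' normalized log2 values, for which sequencing depth is unknown. A difference of 1 on this scale is a doubling, and differences are Uba3 cKO minus control. The median difference of the 35 genes was -0.0022, beside 0.00034 over all 15629 genes tested. The mean was higher in Uba3 cKO ovaries for 15 genes and lower for 20, and over all genes tested it was higher for 50.2% and lower for 49.8%. The largest negative difference was that of Fastkd5 at -0.16, and the largest positive one that of Ptcd1 at 0.14. With limma and adjustment over all genes, 0 of 35 genes passed an adjusted p of 0.05, as did 0.00% of all genes. At an unadjusted p under 0.05 there were 0 of the 35, beside 1.79% of all genes. The groups did not overlap in 0 of the 35, beside 0.320% of all genes.

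The intervals of these differences were narrow on the deposited scale. Its transform is not named and may shrink differences, so true fold changes may be wider than the intervals show. For 35 of 35 genes the 95% interval lay within 0.5 log2 units either side of 0, which was the case for 94.9% of all genes tested and 94.4% of those in the same range of levels. It lay within 0.25 log2 units for 26 of the 35, or 74.3%, beside 51.2% of all genes and 50.9% of those in the same range. The interval that reached lowest was that of Fastkd5, from a fold of 0.770 to 1.04, and the one that reached highest was that of Ptcd1, from 0.958 to 1.26. In a whole ovary, fewer cells of a type and less RNA per cell cannot be told apart.

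**Figure D1:**
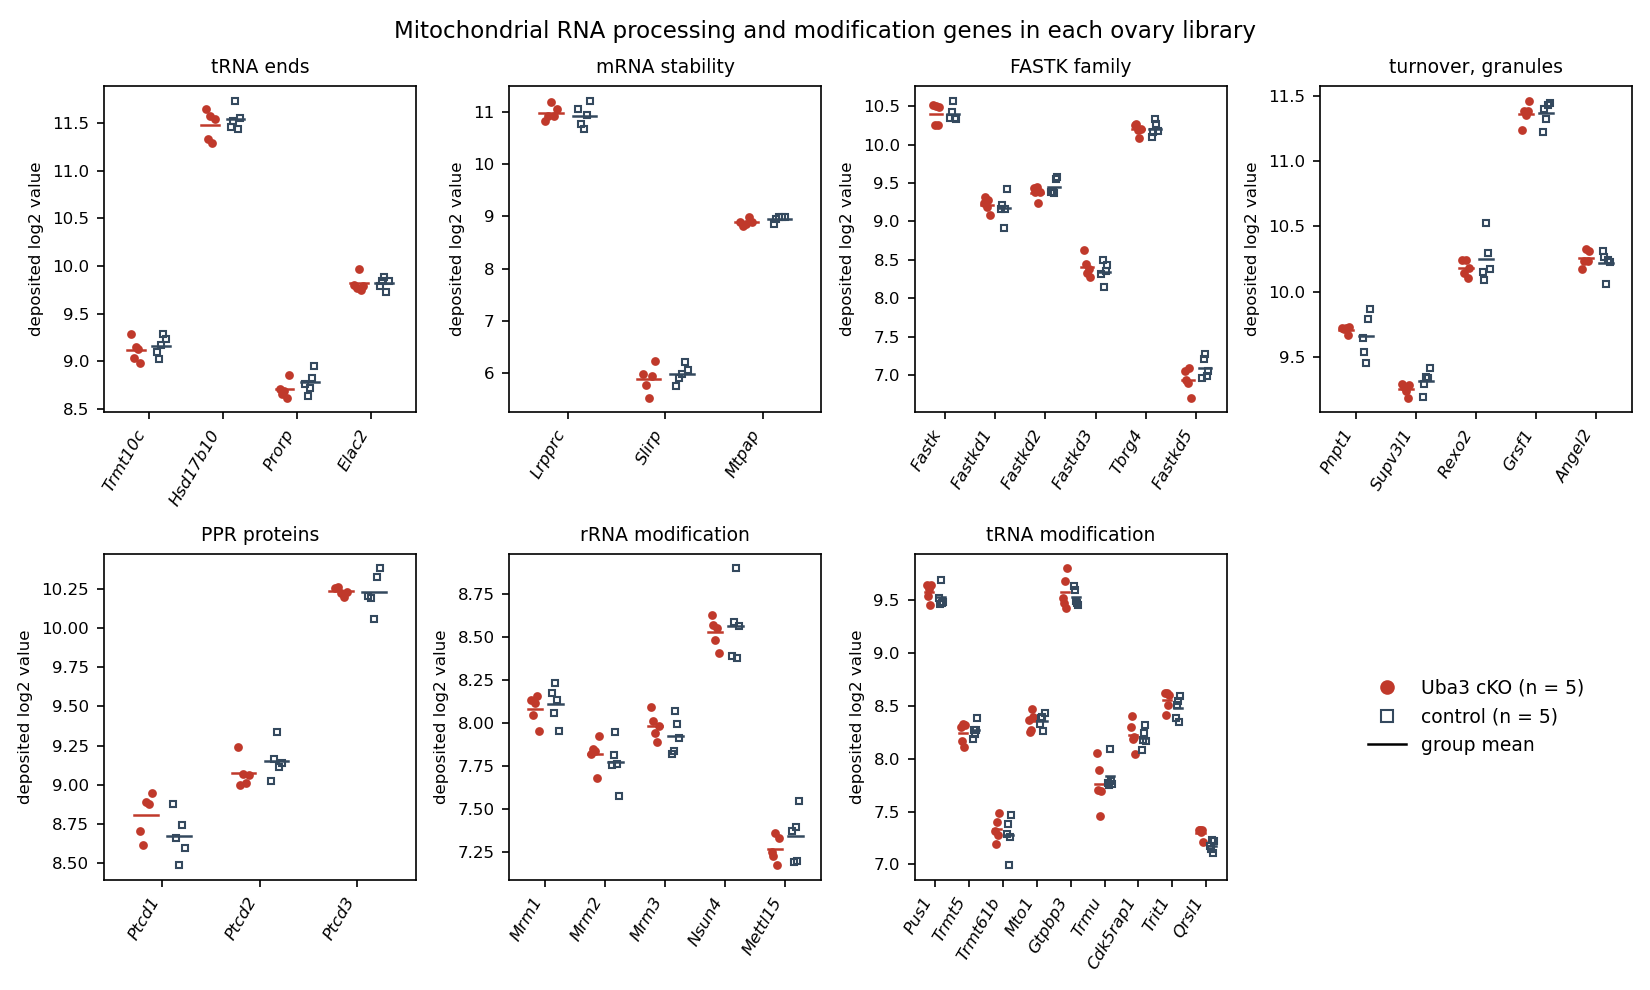
Deposited log2 values of the 35 genes in each library, in panels by role, with Uba3 cKO libraries (filled circles) left of control libraries (open squares) and a line at each group mean; n = 5 libraries per group. In every gene the points of the groups overlap, and Nsun4 in control replicate 3, at 8.90, stands above the other libraries.

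The promoters of these genes were searched for binding motifs of factors known for regulating nuclear genes of mitochondria. RefSeq promoter windows on GRCm38.p6, with 250 bases before the start and 50 after it, were found for 33 of the 35 genes, in 40 windows. Mettl15 and Mtpap had no entry. The letters CCGGAAG, the core motif of the ETS factor GABP (also called nuclear respiratory factor 2), were in 11 of the 40 windows on either strand, or 27.5%, beside 8.86% of all 32851 windows and 15.8% of the windows of genes tested here. The letters AAGATGGCG, the motif of YY1, were in 6 windows, or 15.0%, beside 1.40% of all and 2.61% of those of tested genes. The motif of NRF1 (nuclear respiratory factor 1) was in 3 windows, or 7.50%, beside 4.60% of all and 8.91% of those of tested genes. These matches of letters describe the windows and show no binding.

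The 150 bases upstream of the start are shown for 4 genes, chosen because they hold such letters and belong to different steps of RNA handling. They run 5′ to 3′ on the strand of the gene, and capitals mark CCGGAAG, AAGATGGCG or their reverse complements.
Slirp, chr12:87443746-87443895, plus strand: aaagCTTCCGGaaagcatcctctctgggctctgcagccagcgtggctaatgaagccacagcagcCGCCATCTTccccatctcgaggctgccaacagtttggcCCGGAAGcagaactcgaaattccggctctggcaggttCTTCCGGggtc
Tbrg4, chr11:6626068-6626217, minus strand: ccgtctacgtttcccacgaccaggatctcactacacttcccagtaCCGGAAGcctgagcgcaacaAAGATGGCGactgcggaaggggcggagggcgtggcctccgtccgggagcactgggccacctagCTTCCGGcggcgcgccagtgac
Ptcd2, chr13:99344679-99344828, minus strand: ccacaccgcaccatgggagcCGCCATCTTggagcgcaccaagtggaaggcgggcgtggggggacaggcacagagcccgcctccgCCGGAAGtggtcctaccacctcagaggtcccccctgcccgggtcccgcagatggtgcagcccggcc
Trmt10c, chr16:56037787-56037936, minus strand: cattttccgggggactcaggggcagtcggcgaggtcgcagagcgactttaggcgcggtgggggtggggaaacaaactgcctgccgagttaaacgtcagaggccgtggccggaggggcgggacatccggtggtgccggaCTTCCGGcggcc
The stretch of Slirp holds the GABP letters at 3 places and the YY1 letters at 1. In that of Tbrg4 the GABP letters are at 2 places and the YY1 letters at 1, in that of Ptcd2 each is at 1 place, and that of Trmt10c holds the GABP letters at 1 place and not those of YY1.

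Many of the genes also start near a neighbour on the other strand. In GENCODE M21, 12 of the 35, or 34.3%, had the start of an opposite-strand protein-coding gene within 1000 bases of their own, beside 2098 of 13897 tested protein-coding genes, or 15.1%. Slirp is paired in this way with Alkbh1, a demethylase that acts on tRNAs, and Ptcd2 with Mrps27, a protein of the small mitochondrial ribosomal subunit. Ptcd3 is paired with Polr1a, the large subunit of RNA polymerase I, and Mettl15 with the kinesin Kif18a. The differences of these partners were 0.014 for Alkbh1, 0.00041 for Mrps27, -0.084 for Polr1a and -0.011 for Kif18a, and none of them was called. Beside them stood -0.092 for Slirp, -0.079 for Ptcd2, 0.00095 for Ptcd3 and -0.072 for Mettl15. Paired starts were not required to point away from each other, and some of the pairs overlap. Slirp shares 122 exon bases with Alkbh1, and Mettl15 shares 11 with Kif18a. The starts of Slirp and Alkbh1 are 121 bases apart, and those of Ptcd2 and Mrps27 are 81 apart. The stretches shown for Slirp and Ptcd2 therefore also lie near the start of another gene.

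Per length of the longest transcript, the genes spanned 7.0 log2 units, or 128-fold. Hsd17b10, which is also a dehydrogenase of fatty acid and steroid metabolism, had the highest level at 11.51 ± 0.13 log2 units per kb (SD over 10 libraries). Grsf1, an RNA-binding protein of mitochondrial RNA granules, followed at 10.02 ± 0.082, and Rexo2, a nuclease that degrades very short RNAs, at 9.38 ± 0.13. Next came Tbrg4 at 8.97 ± 0.080, Lrpprc at 8.82 ± 0.17 and Ptcd3 at 8.81 ± 0.085, and from each of these to the gene below it the gap was less than the sum of both SDs. At the low end stood Trmt61b at 5.94 ± 0.14, Fastkd5 at 5.42 ± 0.16 and Slirp at 4.51 ± 0.22. Of the 34 gaps between neighbours in the order, 9 were larger than the sum of both SDs, 3 of them at the top, below Hsd17b10, Grsf1 and Rexo2, and 2 at the bottom, above Fastkd5 and Slirp.

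This order depends on the length used. With the median length of coding transcripts in place of the longest transcript, an alternative chosen after seeing the data, Grsf1 was first at 11.73 and Hsd17b10 second at 11.54, Fastkd5 was lowest at 5.57 and Slirp stood above it at 6.72. The span was then 6.16 log2 units, or 71.5-fold, and 19 of the 35 genes moved by 3 or more ranks. Some genes share exon bases with another gene of the table, and how the authors counted such reads, and whether by strand, is not given in the sources used here. For Slirp 93.9% of the exon bases in GENCODE M21 are shared with Snw1 on the other strand, for Fastkd5 65.2% with Ubox5 on the same strand, and for Fastk 26.1% with Slc4a2 on the other strand. Trmt61b shares 13.9% with Spdya on the other strand, and its identifier is classed as antisense in that annotation. Levels of these genes are uncertain for that reason, Slirp and Fastkd5 most of all.

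**Figure D2:**
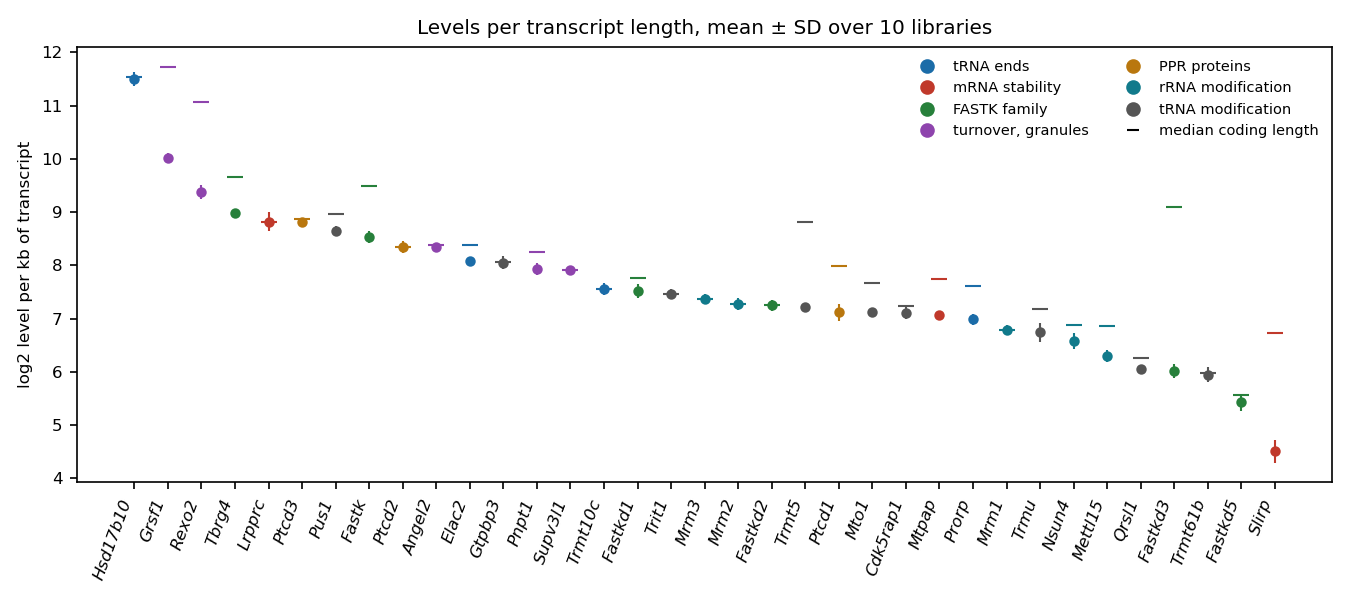
Mean level per kb of the longest transcript (points, with bars of 1 SD over the 10 libraries) for each gene, in falling order and coloured by role; dashes give the level per kb of the median coding transcript. Levels run from 11.51 for Hsd17b10 to 4.51 for Slirp, and the dash of Fastkd3 lies at 9.09, far above its point at 6.02.

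The tRNA-end processing genes were close in the groups, with 4 of 4 means lower in Uba3 cKO ovaries and 0 called. The sign of Elac2 turned under 9 of 19 alternatives, among them library weights, a transcript-length covariate and leaving out single libraries. Hsd17b10 stood at 11.65, 11.33, 11.57, 11.29 and 11.54 in Uba3 cKO ovaries, against 11.46, 11.51, 11.73, 11.44 and 11.55 in controls. Uba3 cKO replicates 2 and 4 lay below every control and the other libraries were intermixed, for a difference of -0.063 (standard error 0.082). Prorp, the nuclease subunit of RNase P, had 8.71, 8.66, 8.70, 8.62 and 8.85 in Uba3 cKO ovaries, against 8.76, 8.64, 8.72, 8.83 and 8.95 in controls. All but replicate 4 of its Uba3 cKO values lay within the range of the controls, and the difference was -0.075 (standard error 0.076). Trmt10c, the methyltransferase subunit of RNase P, averaged 9.12 ± 0.11 and 9.17 ± 0.11 in Uba3 cKO and control ovaries (difference -0.047, standard error 0.076). Elac2, which cuts the 3′ ends of tRNAs, averaged 9.82 ± 0.088 and 9.82 ± 0.060 (difference -0.0022, standard error 0.060).

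Lrpprc and Slirp encode partners that bind mitochondrial mRNAs and keep them stable, and Mtpap the mitochondrial poly(A) polymerase. For Lrpprc the values were 10.83, 10.92, 11.18, 10.93 and 11.05 in Uba3 cKO ovaries, against 11.06, 10.77, 10.68, 10.94 and 11.21 in controls. The controls had both the lowest and the highest library, in replicates 3 and 5, and the difference was 0.049 (standard error 0.10). It changed sign without Uba3 cKO replicate 3 or control replicate 3, with a range from -0.015 to 0.12 over the libraries left out. Mtpap stood at 8.90, 8.82, 8.85, 8.99 and 8.90 in Uba3 cKO ovaries, against 8.85, 8.95, 8.99, 8.99 and 9.0 in controls. All controls but replicate 1 lay above every Uba3 cKO library other than replicate 4, and the difference was -0.065 (standard error 0.062). Slirp averaged 5.89 ± 0.26 in Uba3 cKO ovaries and 5.99 ± 0.18 in controls, a difference of -0.092 (standard error 0.13). It had the widest spread of the 35 genes. The lowest values in this table appear drawn toward their mean. Whether that holds at the level of Slirp, so that its difference is understated, was not tested. Of its exon bases 93.9% are shared with Snw1 on the other strand, so reads of that gene may enter its values. All 3 genes missed the threshold (limma, adjusted p = 1 each).

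The FASTK family encodes related proteins of the mitochondrial matrix that each act on certain transcripts, and 0 of its 6 genes were called. FASTKD5 is known in human cells for cutting precursors at junctions that no tRNA marks. Fastkd5 stood at 7.05, 6.93, 6.90, 7.08 and 6.70 in Uba3 cKO ovaries, against 6.96, 7.21, 7.28, 6.98 and 7.05 in controls. The lowest 3 libraries were Uba3 cKO and the highest 2 controls, with 5 intermixed between 6.96 and 7.08. Its difference was -0.16 (standard error 0.099, unadjusted p = 0.125, adjusted p = 1 by limma), and with the oocyte marker level of each library as a covariate it was -0.16 with an unadjusted p of 0.0347 and an adjusted p of 1. Fastk, which is needed for the mRNA of the complex I subunit ND6, had 10.52, 10.26, 10.50, 10.26 and 10.48 in Uba3 cKO ovaries, against 10.34, 10.43, 10.57, 10.34 and 10.33 in controls. Its Uba3 cKO values fell into a pair near 10.26 and a set near 10.50, and all controls but replicate 3 lay between these, and the difference was -0.00045 (standard error 0.075).

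The other FASTK genes also overlapped between the groups. Fastkd2, which takes part in assembly of the large ribosomal subunit, averaged 9.38 ± 0.083 in Uba3 cKO ovaries and 9.45 ± 0.11 in controls (difference -0.079, standard error 0.069). Tbrg4, also called FASTKD4, which stabilises several mRNAs, averaged 10.20 ± 0.074 and 10.21 ± 0.094 (difference -0.0092, standard error 0.062). The difference was 0.046 (standard error 0.088) for Fastkd1, which in human cells affects the mRNA of the complex I subunit ND3. It was 0.063 (standard error 0.090) for Fastkd3, which in human cells bears on the subunit COX1 of complex IV.

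Of the genes of RNA turnover and RNA granules 0 of 5 were called, and 5 of 5 intervals lay within 0.25 log2 units either side of 0. Grsf1 stood at 11.24, 11.39, 11.35, 11.39 and 11.46 in Uba3 cKO ovaries, against 11.22, 11.40, 11.33, 11.43 and 11.44 in controls. Replicate 1 was the lowest library in each group, and the difference was -0.0011 (standard error 0.062). Supv3l1, the helicase of the mitochondrial degradosome, had 9.29, 9.27, 9.24, 9.19 and 9.28 in Uba3 cKO ovaries, against 9.19, 9.29, 9.35, 9.34 and 9.41 in controls. Control replicates 3, 4 and 5 lay above every Uba3 cKO library, control replicate 2 was level with the highest of these, and the difference was -0.061 (standard error 0.060, adjusted p = 1 by limma). Pnpt1, the exoribonuclease that works with this helicase, averaged 9.71 ± 0.025 in Uba3 cKO ovaries and 9.66 ± 0.17 in controls (difference 0.050, standard error 0.078). Rexo2 averaged 10.18 ± 0.063 and 10.25 ± 0.17 (difference -0.065, standard error 0.079), and Angel2, an RNA-end phosphatase in human cells, 10.26 ± 0.064 and 10.22 ± 0.096 (difference 0.034, standard error 0.061).

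Proteins with pentatricopeptide repeats bind RNA in organelles, and 3 of them are among these genes. Ptcd1, which in human cells associates with leucine tRNAs, had 8.71, 8.61, 8.89, 8.88 and 8.95 in Uba3 cKO ovaries, against 8.88, 8.66, 8.49, 8.74 and 8.60 in controls. Uba3 cKO replicates 3, 4 and 5 and control replicate 1 formed the upper values and the rest lay at 8.74 or below. The difference was 0.14 (standard error 0.091), with an unadjusted p of 0.162 and an adjusted p of 1 by limma. Ptcd3, a subunit of the small mitochondrial ribosomal subunit, stood at 10.26, 10.26, 10.22, 10.20 and 10.23 in Uba3 cKO ovaries, against 10.21, 10.19, 10.06, 10.33 and 10.38 in controls. Its Uba3 cKO values lay within the span of the controls, and the difference was 0.00095 (standard error 0.064). Ptcd2, which in mice is linked to the mRNA of cytochrome b, averaged 9.08 ± 0.099 in Uba3 cKO ovaries and 9.15 ± 0.11 in controls (difference -0.079, standard error 0.074).

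The enzymes that modify mitochondrial rRNA include Mrm1, Mrm2 and Mrm3, methyltransferases of the large rRNA, and Nsun4 and Mettl15, which methylate the small rRNA. Nsun4 had 8.63, 8.57, 8.48, 8.55 and 8.41 in Uba3 cKO ovaries, against 8.39, 8.59, 8.90, 8.38 and 8.56 in controls. Control replicate 3 stood highest, and the lowest 2 libraries were also controls; the difference was -0.035 (standard error 0.099) with that library and 0.049 without it. Mettl15 stood at 7.25, 7.23, 7.36, 7.17 and 7.33 in Uba3 cKO ovaries, against 7.38, 7.19, 7.40, 7.20 and 7.55 in controls. The highest 3 libraries were controls and the others were intermixed, for a difference of -0.072 (standard error 0.089). The differences of the Mrm genes were -0.029 for Mrm1, 0.050 for Mrm2 and 0.058 for Mrm3, with standard errors of 0.078, 0.085 and 0.077. With limma 0 of these 5 genes were called.

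The largest set, of 9 genes, modifies mitochondrial tRNAs or completes their charging, and 6 of its means were higher in Uba3 cKO ovaries and 3 lower. The sign of Trmt61b turned under library weights. Leaving out a library turned the signs of Trmt61b, Mto1, Trmt5, Gtpbp3, Trmu and Cdk5rap1. Qrsl1 encodes a subunit of the amidotransferase that turns glutamate on the glutamine tRNA into glutamine, and it had the smallest p of the 35 genes. It stood at 7.33, 7.32, 7.31, 7.33 and 7.21 in Uba3 cKO ovaries, against 7.18, 7.15, 7.23, 7.11 and 7.22 in controls. Of its Uba3 cKO libraries 4 lay above every control, and replicate 5 lay among the upper controls. The difference was 0.12 (standard error 0.072), with an unadjusted p of 0.113 and an adjusted p of 1 by limma; without a mean-variance trend the unadjusted p was 0.0484 and the adjusted p again 1.

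Gtpbp3 and Mto1 encode the pair of enzymes that build a taurine-containing group on the wobble uridine of certain tRNAs, and Trmu adds sulfur to that base. Gtpbp3 had 9.52, 9.47, 9.68, 9.43 and 9.80 in Uba3 cKO ovaries, against 9.63, 9.59, 9.49, 9.47 and 9.45 in controls. The upper and the lower extreme were both Uba3 cKO libraries, and the difference was 0.053 (standard error 0.079). Mto1 averaged 8.35 ± 0.087 in Uba3 cKO ovaries and 8.36 ± 0.066 in controls, and Trmu 7.76 ± 0.23 and 7.83 ± 0.14. Trit1 attaches an isopentenyl group beside the anticodon, to which Cdk5rap1 adds a methylthio group, and their differences were 0.079 (standard error 0.075) and 0.030 (standard error 0.083). The pseudouridine synthase Pus1 differed by 0.050, and the methyltransferases Trmt5 and Trmt61b by -0.028 and 0.057. Of these 9 genes 0 were called by limma and 0 had an unadjusted p under 0.05.

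**Figure D3:**
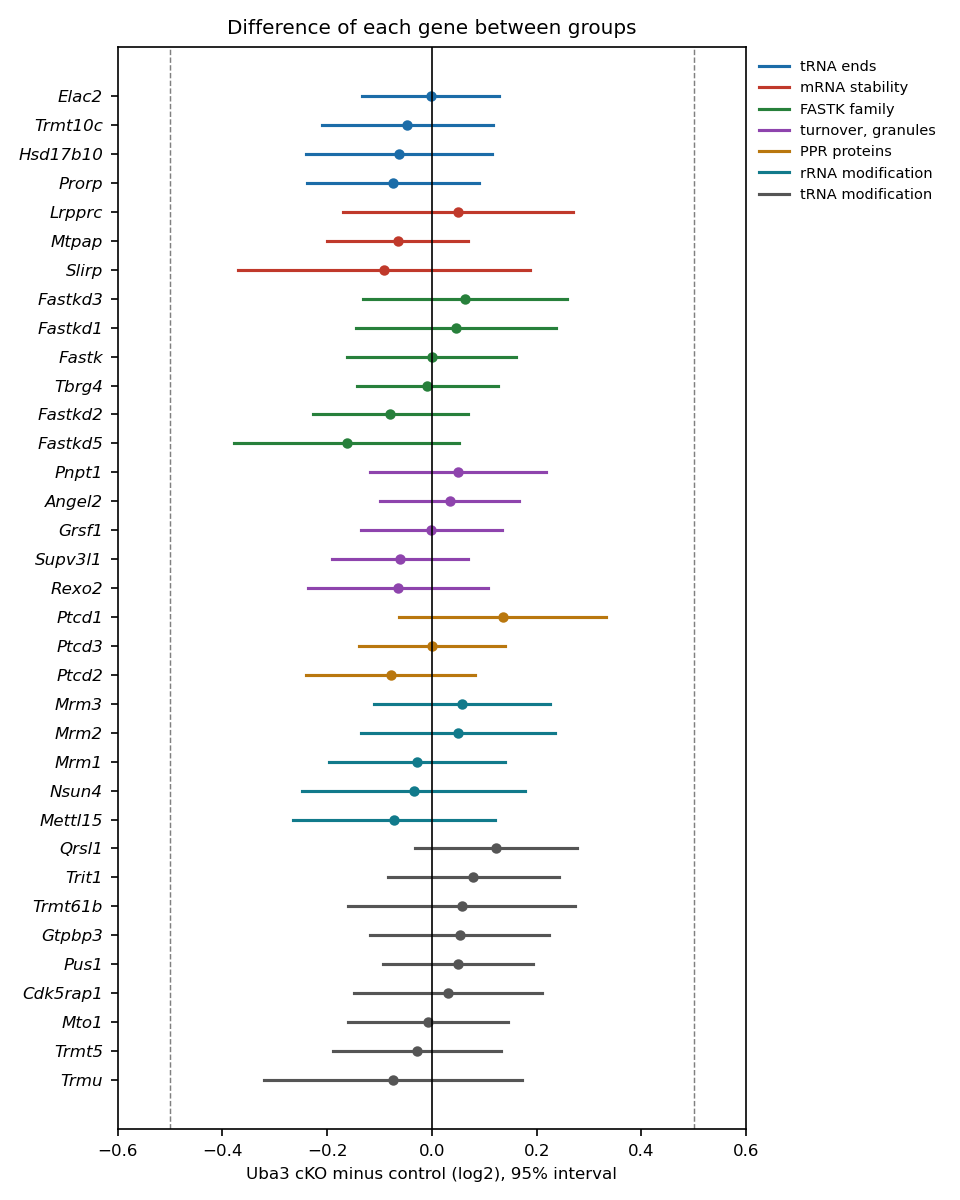
Difference of each gene between the genotypes (Uba3 cKO minus control, log2; points) with its 95% interval from limma (bars), grouped by role; n = 5 libraries per group, and dashed lines stand at 0.5 either side of 0. All 35 intervals include 0 and lie inside the dashed lines.

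Further genes of mitochondrial RNA metabolism were also not called. Of 36 other genes for processing or modifying mitochondrial RNA, 19 had the higher mean in Uba3 cKO ovaries and 17 the lower, with a median difference of 0.0046 and 0 called by limma. The smallest p among them were those of Ybey, an endoribonuclease, at 6.57 ± 0.098 in Uba3 cKO ovaries and 6.72 ± 0.10 in controls (unadjusted p = 0.103, adjusted p = 1 by limma), and of Mettl8, a tRNA methyltransferase, at 8.87 ± 0.11 and 8.99 ± 0.090 (unadjusted p = 0.148, adjusted p = 1 by limma). Of 17 mitochondrial aminoacyl-tRNA synthetases 9 means were higher and 8 lower, with a median difference of 0.014 and 0 called. Iars2 and Yars2, the isoleucine and tyrosine enzymes, had the smallest p there, with differences of 0.086 (standard error 0.069) and 0.071 (standard error 0.067). Neither list had a gene at an unadjusted p under 0.05.

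The mitochondrially encoded RNAs themselves had lower means in Uba3 cKO ovaries for 12 of 12 mRNAs and 2 of 2 rRNAs tested, beside 49.8% of all genes. By limma 0 of them were called. An unadjusted p under 0.05 was found for 3 of these mRNAs, mt-Nd2, mt-Nd4 and mt-Co3, and for both rRNAs, beside 1.79% of all genes. These RNAs are cut from shared precursors, so their agreeing signs are not independent observations. The difference of mt-Rnr1, the small rRNA, was -0.34 (standard error 0.098, unadjusted p = 0.00387, adjusted p = 1 by limma), and that of mt-Rnr2, the large rRNA, was -0.34 (standard error 0.13, adjusted p = 1 by limma). Without control replicate 3 the means were still lower for 12 of 12 mRNAs, 0 of them with an unadjusted p under 0.05, and for both rRNAs, at -0.20 and -0.24 and again with an unadjusted p under 0.05. The mean level of the 12 mRNAs was 11.37 ± 0.034 in Uba3 cKO ovaries and 11.60 ± 0.24 in controls (exact permutation p = 0.0556, two-sided, n = 5 each). The difference was -0.23, and -0.13 without control replicate 3. Each mRNA weighs equally in this mean, although their own levels lay far apart. In Uba3 cKO ovaries mt-Co1 averaged 17.26 and mt-Cytb 15.48, whereas mt-Co2 averaged 6.66, mt-Atp6 6.24 and mt-Nd4l 4.60. A further mRNA, mt-Atp8, averaged 0.38 there and did not reach the filter. The reason for the low levels was not tested.

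Over the 10 libraries the 35 genes had a median SD of 0.108, and all genes tested one of 0.137. Slirp (0.216), Trmu (0.182) and Lrpprc (0.174) varied most, and Mtpap (0.068), Supv3l1 (0.070) and Elac2 (0.071) least. Within groups the median SD was 0.088 in Uba3 cKO ovaries and 0.108 in controls, and over all genes 0.118 and 0.145. The SD was larger in controls for 22 of the 35 genes, or 62.9%, beside 62.2% of all genes, and without control replicate 3 for 17, or 48.6%, beside 43.0%.

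Control replicate 3 stood apart from the other libraries. It was the highest library for 11 of the 35 genes and the lowest for 8, together 54.3%, and over all genes tested it was highest or lowest for 49.2%. Its values also leaned on transcript length, with a slope of -0.18 log2 units per doubling of length, where the other 9 libraries ran from -0.074 to 0.069. It had the highest level of mitochondrially encoded mRNAs, 11.98 as the mean of 12 mRNAs, beside 11.34 to 11.41 in Uba3 cKO ovaries and 11.34 to 11.66 in the other controls. Uba3 cKO replicate 4 was the lowest library for 11 of the 35 genes, beside 12.1% of all genes, and control replicate 5 the highest for 10, beside 11.5%. The median difference of the 35 genes was -0.0059 without control replicate 3 and 0.0099 without Uba3 cKO replicate 4, and 0 genes were called either way. Of 126 marker genes in 11 lists of ovarian and other cell types, 0 were called between the groups; the mean granulosa marker level ran from 12.59 to 12.86 in Uba3 cKO ovaries and from 12.63 to 12.77 in controls.

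Whole ovaries differ in how much of their RNA is oocyte RNA, so each gene was also fitted against the oocyte marker level of its library, within genotype. That level, the mean of 40 markers, ran from 9.15 to 9.84 in Uba3 cKO ovaries and from 9.29 to 9.92 in controls, an overall range of 1.71-fold. By limma 0 of the 35 genes were called for this slope at an adjusted p under 0.05, beside 2.15% of the 15589 genes fitted, 1.91% with a positive and 0.244% with a negative slope. Without the 2 libraries farthest from the median of the level, 5 of all genes were called in place of 335, and with 1 library left out 71 to 344 were, the fewest without Uba3 cKO replicate 5.

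An unadjusted p under 0.05 was found for 4 of the 35, beside 19.0% of all genes. The slope was positive for 2 of them, Fastkd5 and Nsun4, beside 9.65% of all genes, and negative for 2, Lrpprc and Ptcd1, beside 9.34%. These 4 are described because of these slopes, and their values in each library are given above. Fastkd5 had a slope of 0.45 log2 units per log2 unit of the oocyte level (standard error 0.12, unadjusted p = 0.00361, adjusted p = 0.0884 by limma). Its slope was positive under all 20 alternatives. By limma it was called with library weights (adjusted p = 0.0464) and without a mean-variance trend (adjusted p = 0.0342), and under none of the other alternatives. With quantile normalization the slope was 0.32 (adjusted p = 0.232 by limma), without the 2 farthest libraries 0.42 (adjusted p = 0.396 by limma), and without Uba3 cKO replicate 5 0.42 (adjusted p = 0.291 by limma). Its lowest library, Uba3 cKO replicate 5, also had the lowest oocyte level, and its highest, control replicate 3, the highest. Ubox5 shares 65.2% of the exon bases of Fastkd5 on the same strand. Its reads may therefore enter the slope and the genotype difference of Fastkd5, which was not tested.

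For Nsun4 the slope was 0.44 (standard error 0.13, adjusted p = 0.111 by limma), and 0.31 without control replicate 3. That of Lrpprc was -0.42 (standard error 0.15, adjusted p = 0.157 by limma), so its values stood lower where the oocyte level was higher. Over the 20 alternatives it ran from -0.68, without the 2 libraries farthest from the median, to -0.33, with the transcript-length slope as a covariate. Without control replicate 3 it was -0.34. The slope of Ptcd1 was -0.35 (standard error 0.13, adjusted p = 0.189 by limma), and -0.40 without the 2 farthest libraries. It ran from -0.43 to -0.30 over the 20 alternatives. Over all 35 genes the median slope was 0.025, beside -0.0093 over all genes.

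**Figure D4:**
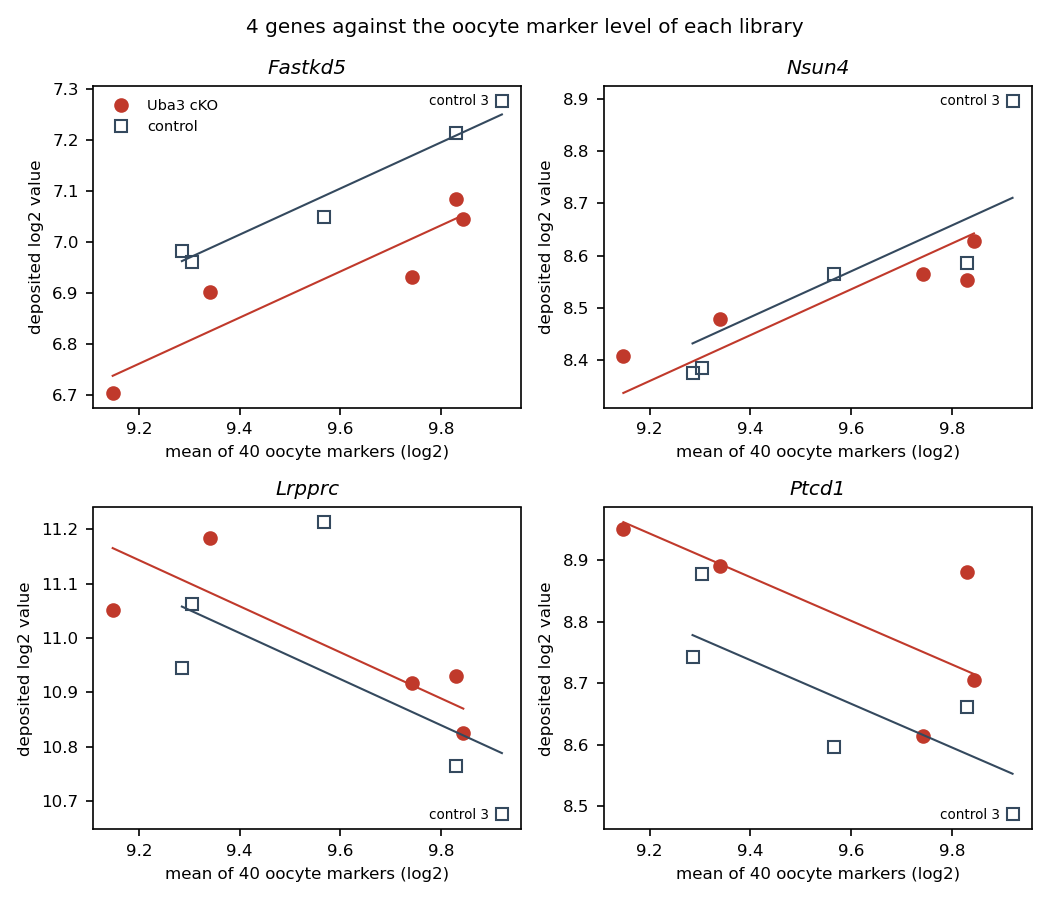
Deposited log2 value of Fastkd5, Nsun4, Lrpprc and Ptcd1 in each library against the mean of 40 oocyte markers (log2), for Uba3 cKO (filled circles) and control (open squares); lines are the fit, with 1 slope shared by both groups. The slopes are 0.45, 0.44, -0.42 and -0.35, and control replicate 3 lies at the right end of each panel.

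The same fit was made against the level of the mitochondrially encoded mRNAs, in which low and abundant mRNAs weigh equally. That level had an SD of 0.034 in Uba3 cKO libraries and 0.24 in controls, so the slopes within genotype rest mainly on the controls. This fit called 0 of the 35 genes and 0.00% of all genes. At an unadjusted p under 0.05 it held 3 of the 35, beside 20.7% of all genes. The slope was positive for 2, Rexo2 and Nsun4, beside 8.66% of all genes, and negative for 1, Angel2, beside 12.0%. These 3 were singled out after seeing their slopes. Rexo2 stood at 10.24, 10.14, 10.25, 10.10 and 10.18 in Uba3 cKO ovaries, against 10.15, 10.09, 10.52, 10.30 and 10.18 in controls. Its highest libraries, control replicates 3 and 4, were also the highest for mitochondrial mRNAs, and its slope was 0.65 (standard error 0.17, adjusted p = 0.106 by limma). Without those 2 libraries, the farthest from the median, the slope was 0.054, so the relation rests on them. The slope of Nsun4 was 0.68 (standard error 0.25, adjusted p = 0.168 by limma) and 0.10 without control replicate 3.

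Angel2 had 10.17, 10.24, 10.33, 10.23 and 10.31 in Uba3 cKO ovaries, against 10.31, 10.26, 10.06, 10.24 and 10.22 in controls. Control replicate 3 was its lowest library, and its slope was -0.40 (standard error 0.16, adjusted p = 0.183 by limma). Lrpprc, the best-known stabiliser of mitochondrial mRNAs, is given for its role and not for its slope. That slope was -0.54 (standard error 0.29, unadjusted p = 0.090, adjusted p = 0.314 by limma). Its lowest library was the one with the highest mitochondrial mRNA level, control replicate 3. Ptcd2, Tbrg4, Trmt61b and Mrm3 had smaller p than Lrpprc in this fit, with slopes of 0.44, 0.35, -0.57 and 0.41. Without control replicate 3 no gene of the 35 had an unadjusted p under 0.05 in this fit, and 0 passed adjustment. With the transcript-length slope of each library as a covariate, the slope on mitochondrial mRNA was 0.36 for Rexo2, 0.39 for Nsun4 and -0.33 for Angel2, and 0 of the 35 had an unadjusted p under 0.05.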

How the data were processed

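Total RNA of whole ovaries was extracted with a PicoPure kit and 10 TruSeq libraries were run on a NovaSeq, per the labels' protocols. The tools fastp, STAR, featureCounts and DESeq2 and the build GRCm39 are named in the submitters' processing notes, without versions. The authors deposited 1 table of normalized log2 values, from -0.21 to 20.19, with library medians between 6.29 and 6.44. Its transform is not named, its lowest values appear drawn toward their mean, and depth and counting error are unknown. Columns were assigned to samples through the names in the labels, and none were identical.

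Symbols were found for 22188 of 22891 identifiers. GENCODE M21 and the RefSeq tables are on GRCm38, so they gave only names, lengths, shared exon bases and neighbours, and promoter sequences with that build's coordinates. The filter kept genes whose mean reached 10 in linear terms (3.32 in log2). The genotype comparison used limma 3.58.1 (R 4.3.3), a mean-variance trend and Benjamini-Hochberg adjustment over 15629 genes. Slopes on the oocyte level (15589 genes) and on the mitochondrial mRNA level (15606 genes) had genotype as a term and left out the genes behind the level. The fits were checked on simulated data.

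The genes and lists were chosen with earlier results of these data known. Values in every library are given for genes called in a fit, those at an unadjusted p under 0.05 between genotypes, those whose groups do not overlap, and the gene with the smallest p and the highest mean in each of 7 role groups; from other lists, the 2 genes with the smallest p where none was called. Alternatives were other filters, normalizations, weights, covariates, a replicate block and leaving out each library.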

Additional observations from a re-analysis of the deposited data

Results flagged for a closer look

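A library far from the other 4 of its group was found in 6 of 70 sets of values, the 35 genes in each group. For independent sets about 1 in 20, or 3.5, would be expected. The genes share libraries and the share over all genes is not given here, so no excess can be read from this count. Elac2 in Uba3 cKO replicate 3 was 9.97, with the next library at 9.80. Pnpt1 in Uba3 cKO replicate 4 was 9.67, below the others at 9.72 to 9.73. Ptcd2 in Uba3 cKO replicate 1 was 9.24, above the next at 9.07. Qrsl1 in Uba3 cKO replicate 5 was 7.21, below the others at 7.31 to 7.33. In control replicate 3, Pus1 was 9.69, above the next at 9.52, and Trmu 8.09, above the next at 7.79. The transcript-length slope of control replicate 3, -0.18, was also far from those of the other controls, 0.010 to 0.062.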

How the results depend on the processing

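Under all 19 alternatives of the genotype comparison 0 of the 35 genes were called, with a smallest adjusted p of 0.999, and the replicate block also gave 0. Deviations of same-numbered libraries had correlations from -0.27 to 0.28, and only replicate 5 was closest to its own number, so the numbers were not taken as pairs. Over all genes 1 was called with each library's transcript-length slope as a covariate and 0 under the others. The median difference of the 35 genes ran from -0.016 to 0.0099 over the libraries left out. Of 665 values of single genes 54 had the opposite sign, in 18 genes.

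Library weights gave 0.015 for Elac2, 0.011 for Fastk, 0.014 for Tbrg4, -0.026 for Ptcd3, 0.027 for Nsun4 and -0.0067 for Trmt61b. The length covariate gave 0.0066 for Elac2, 0.027 for Fastk, 0.0076 for Tbrg4 and -0.015 for Ptcd3, median centring -0.0042 for Ptcd3 and quantile normalization 0.0082 for Grsf1. The lowest and highest differences with 1 library left out were -0.041 and 0.015 for Elac2, -0.015 and 0.12 for Lrpprc, -0.029 and 0.041 for Fastk, -0.019 and 0.11 for Fastkd1, -0.037 and 0.023 for Tbrg4, -0.0011 and 0.10 for Pnpt1, -0.10 and 0.0042 for Rexo2, -0.037 and 0.031 for Grsf1, -0.0059 and 0.058 for Angel2. They were -0.042 and 0.038 for Ptcd3, -0.068 and 0.0029 for Mrm1, -0.081 and 0.049 for Nsun4, -0.050 and 0.0055 for Trmt5, -0.014 and 0.10 for Trmt61b, -0.036 and 0.016 for Mto1, -0.0015 and 0.091 for Gtpbp3, -0.15 and 0.0023 for Trmu and -0.013 and 0.077 for Cdk5rap1.

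For the oocyte slope 1 of the 35 genes, Fastkd5, was called with library weights and 1, the same gene, without the trend. Over all genes that slope called 335, and 170 with 5 oocyte genes as the level, 894 with library weights, 5 without the 2 libraries farthest from the median and 71 to 344 with 1 library left out, lowest without Uba3 cKO replicate 5. The mitochondrial mRNA slope called 0 of all genes, and 206 with a mean of at least 50, 1 without the genotype term and 0 to 8 with 1 library left out. The cause of these shifts was not tested. Weights for that slope came from an estimation that stopped before it converged. Depth is unknown, so counting error has no estimate.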
